A study of Mus musculus with 2 samples.

Results

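Malat1-poor microglia were cells with the surface genes of microglia and almost none of the nuclear RNA Malat1. They numbered 606 of the 14849 cells kept from both libraries, 441 of 7032 in the Disc1 WT/WT library and 165 of 7817 in the Disc1 LI/LI library. The cells were chosen by measured values. A kept cell had at least 200 genes and at most 10% of its UMIs (unique molecular identifiers, each counted once per captured RNA molecule) from mitochondrial genes. It was gated as a microglial cell when P2ry12, Gpr34, Tmem119, Siglech, Fcrls and Olfml3 together made up at least 0.5% of its UMIs and S100a8 plus S100a9, the main neutrophil calgranulins, less than 1%. Gated cells with Malat1 below 0.5% of UMIs formed the Malat1-poor class, and the 7524 gated cells at or above that limit are called Malat1-rich here.

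The study asked how loss of DISC1, a scaffold protein, alters microglia and their actin cytoskeleton. Each genotype was represented by 1 library of brain cells pooled from 6 male littermates aged 23 weeks: wild-type mice (Disc1 WT/WT, WT/WT below) and mice homozygous for the Disc1 locus impairment (Disc1 LI/LI, LI/LI below), an allele the study describes as equivalent to a knockout and which every cell of the animal carries. Both pools were dissociated in the presence of actinomycin D, an inhibitor of transcription, and sorted as CD45low CD11b+ cells. With 1 library per genotype, genotype and library cannot be told apart, so no test was made, and every interval below is a 95% interval that covers counting error only. The libraries held 33601957 UMIs in 7038 barcodes (WT/WT) and 47731571 UMIs in 7834 barcodes (LI/LI), and shared 12 barcodes, none of them Malat1-poor in both.

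The libraries stood apart in what they contained. Gated microglia made up 87.9% of the kept WT/WT cells and 24.9% of the kept LI/LI cells, of which 3668 passed the neutrophil limit against 119 in WT/WT. Every genotype comparison below rests on those unequal libraries.

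Malat1 is a long noncoding RNA that stays in the nucleus, where it gathers at the speckles that store splicing factors. Its 3′ end is not made by ordinary polyadenylation. An enzyme that otherwise trims transfer RNAs cuts the transcript, and the end left behind is held as a triple helix between U-rich stretches and a genomically encoded run of A. Because the RNA is abundant and nuclear, its share of a cell's UMIs is widely read as a mark of how much nuclear RNA a droplet held. Microglia, the resident macrophages of the brain, are recognised by homeostatic genes such as P2ry12, the purinergic receptor that guides their processes, and Cx3cr1, the receptor for neuronal fractalkine.

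The Malat1 sequence is shown because libraries of this kind are primed with oligo-dT and this RNA offers an encoded run of A. The annotated gene is a single exon on the minus strand at chr19:5795690-5802672 (mm10), and transcript Malat1-201 of the GENCODE annotation is 6983 nucleotides long. Its longest run of A, 12 bases at positions 6674 to 6685, occurs once at that length. It is printed in capitals within positions 6644 to 6703, transcript strand, 5′ to 3′.
Malat1-201: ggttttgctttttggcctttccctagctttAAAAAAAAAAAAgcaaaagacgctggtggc

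Malat1-poor cells made up 7.14% of gated microglia in WT/WT (441 of 6180, 6.51 to 7.81%, exact binomial interval) and 8.46% in LI/LI (165 of 1950, 7.26 to 9.79%). The difference of 1.33 percentage points had an interval from -0.0091 to 2.78 points, which included 0. This depended on the limits. With the Malat1 limit at 1% the shares were 7.35% and 10.4%, a difference of 3.01 points (1.57 to 4.57), and among cells of 2000 to 6000 UMIs they were 7.50% and 6.17%, with LI/LI the lower (difference -1.33 points, -2.65 to 0.14). Most Malat1-poor cells had no Malat1 UMI at all: 282 of 441 in WT/WT and 115 of 165 in LI/LI. Malat1-rich cells had a median of 3.07% and 3.11% of UMIs in Malat1. Few cells lay near the limit. Between 0.1% and 1% there were 36 WT/WT cells (0.583% of the gated cells) and 54 LI/LI cells (2.77%). Just inside the limit, from 0.4% to 0.5%, were 2 and 5 cells, and just outside, from 0.5% to 0.6%, were 4 and 5.

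**Figure D1:**
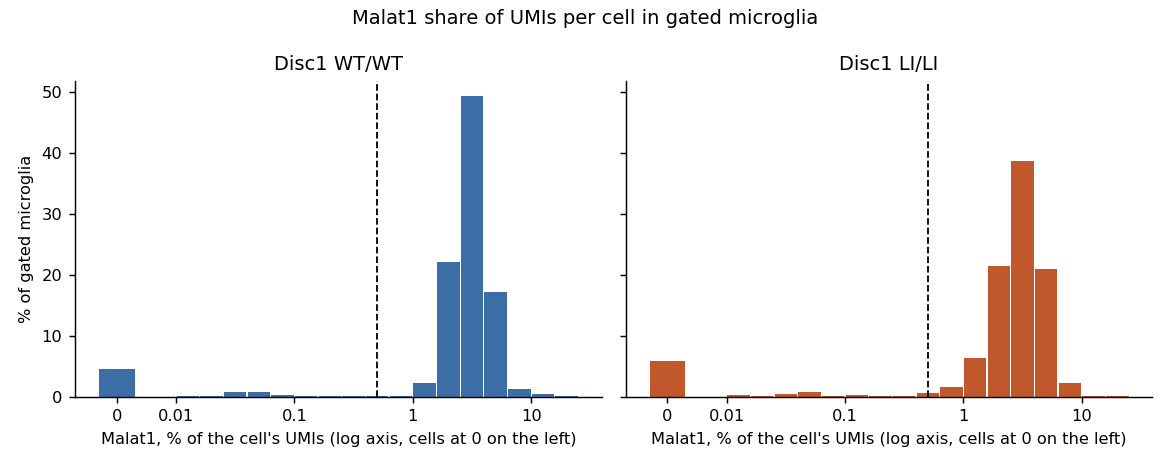
Share of each gated microglial cell's UMIs in Malat1 (x axis, percent, log scale with cells at 0 in the leftmost bar) against the percent of gated cells (y axis), for WT/WT and LI/LI. The dashed line marks the 0.5% limit. In both libraries one group of cells is at 0 or below 0.1%, another is centred near 3%, and few cells lie between 0.1% and 1%.

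The labelled cell type was checked against genes the rule did not use. C1qa, a chain of the complement initiator C1q, had a UMI in all 441 Malat1-poor cells of WT/WT (median depth 2699 UMIs) and in all 165 of LI/LI (2413 UMIs). Among neutrophil-rich cells, those with at least 1% S100a8 plus S100a9, which should lack it, the shares were 49.6% in WT/WT (4712 UMIs) and 31.1% in LI/LI (4209 UMIs). C1q chains are also made by border-associated macrophages, and at least 3 of 8 markers of those cells had a UMI in 7.94% and 1.82% of the Malat1-poor cells. Cx3cr1 had a UMI in 84.4% and 70.9% of Malat1-poor cells, against 32.8% and 11.7% of neutrophil-rich ones. Both genes were thus detected in most Malat1-poor cells, although Cx3cr1 and 6 other microglial genes outside the rule were at lower levels than in Malat1-rich cells.

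Malat1-poor cells lay at the low end of the microglial gate, which the rule itself shaped. The 6 rule genes took a median of 0.745% of UMIs in WT/WT Malat1-poor cells and 1.20% in Malat1-rich cells, and 0.732% against 1.11% in LI/LI. Of the gated WT/WT cells with these genes at 0.5 to 0.75% of UMIs, 35.4% were Malat1-poor, falling to 11.3% at 0.75 to 1%, 2.13% at 1 to 1.5% and 0.870% above. The LI/LI shares ran 29.3%, 11.5%, 2.17% and 2.35%. Among cells with 0.25 to 0.5%, which the gate left out, 42.7% and 32.0% had Malat1 below its limit. The gate edge itself held 87 and 34 Malat1-poor cells from 0.5% to 0.6%, with 53 and 26 such cells just outside, from 0.4% to 0.5%.

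They were also shallower. Median depth was 2699 UMIs and 1130 genes in WT/WT Malat1-poor cells against 4347 UMIs and 1987 genes in Malat1-rich cells, and 2413 UMIs and 961 genes against 3866 and 1726 in LI/LI. Depth ranges overlapped widely, from 762 to 10270 UMIs in the WT/WT Malat1-poor cells and from 503 to 21443 UMIs in the Malat1-rich ones. The Malat1-poor share was 48.5% of gated WT/WT cells with 1500 to 2500 UMIs and 1.89% of those with 6000 or more, and 40.2% and 2.93% in LI/LI. Below 1500 UMIs the libraries differed, with 9.80% of 153 gated WT/WT cells and 47.4% of 38 LI/LI cells Malat1-poor. Thinned to 1000 UMIs each, which left out 6 Malat1-poor cells per library and 98 and 11 Malat1-rich ones, the medians were 557 genes against 665 in WT/WT and 521 against 626 in LI/LI. At equal depth the Malat1-poor cells thus held fewer different genes.

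The composition of their RNA differed as well. Mitochondrially encoded genes took a median of 1.98% of UMIs in WT/WT Malat1-poor cells and 0.829% in Malat1-rich cells, and 1.62% against 0.668% in LI/LI. The highest Malat1-poor value was 6.60%, below the 10% filter. Cytosolic ribosomal protein genes took 16.9% against 7.93% and 16.5% against 9.42%. The 3 C1q chains took 3.08% against 2.68% and 4.07% against 3.53%, a small difference by comparison. The ranges of single cells overlapped for all of these measures.

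**Figure D2:**
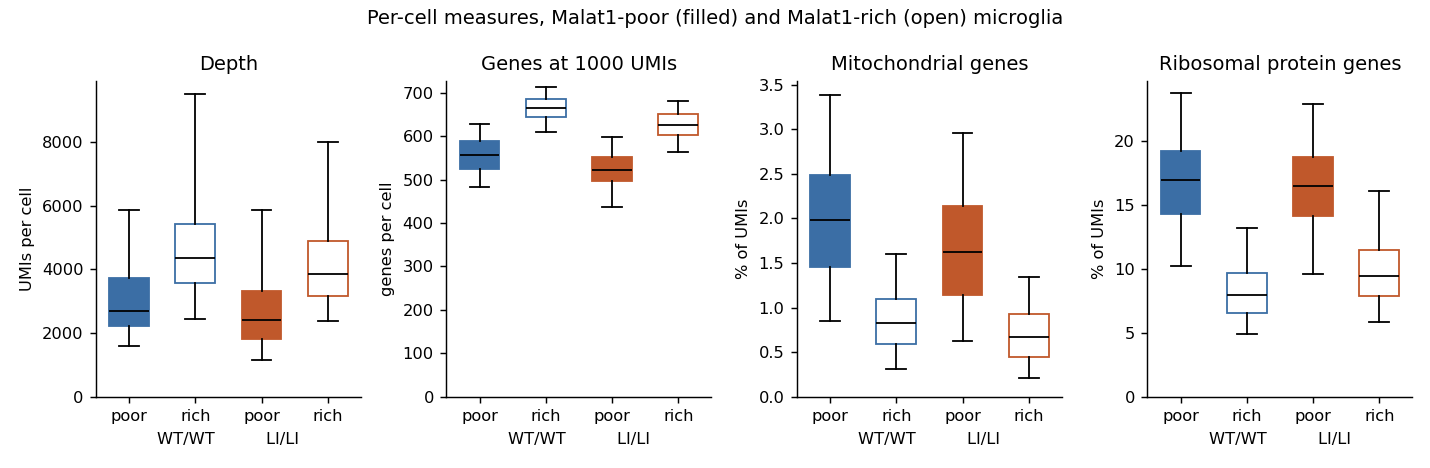
UMIs per cell, genes per cell after thinning to 1000 UMIs, and percent of UMIs in mitochondrially encoded and in ribosomal protein genes, for Malat1-poor (filled) and Malat1-rich (open) microglia of each library. Boxes are quartiles with the median, and whiskers run over the middle 90% of cells. Malat1-poor cells have the lower medians in the first pair of panels and the higher medians in the second pair, in both libraries.

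In WT/WT ribosomal protein and splicing genes were nearly level below the Malat1 limit, differed across it and changed gradually above it. Cells with no Malat1 UMI, with up to 0.1% and with 0.1 to 0.5% had median ribosomal protein shares of 17.0%, 16.7% and 16.2%, against 11.5% at 0.5 to 1%, 9.72% at 1 to 2%, 8.01% at 2 to 4% and 6.96% at 4% and above. Summed over cells, the CPM (counts scaled to the UMI total of the class) of 14 SR protein and splicing kinase genes was 1934, 1850 and 2256 in those 3 low bins and 3598, 4388, 5277 and 6100 in the higher ones. Other measures took another course. The 12 listed nuclear noncoding RNAs summed to 29.4, 25.7 and 135 CPM in the low bins and 252 CPM at 0.5 to 1%. The 135 CPM rest on 9 UMIs. Median mitochondrial shares were 0.806%, 1.00%, 0.835% and 0.685% in the higher bins. C1qa was somewhat higher in the low bins, at 11192, 11962 and 12121 CPM in the low bins and 8824, 10804, 10394 and 10230 CPM above. In LI/LI it stood at 15595, 15330 and 18253 CPM in the low bins and went from 15454 to 14559, 13986 and 13022 CPM above. The bins next to the limit were small, with 23 cells at 0.1 to 0.5% and 13 at 0.5 to 1%. In LI/LI the 17 cells at 0.1 to 0.5% lay between their neighbours, with a ribosomal protein share of 13.7% against 16.5% at above 0 to 0.1% and 11.0% at 0.5 to 1%.

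For single genes, UMIs were summed over the cells of each class, 1384630 and 28002423 UMIs for Malat1-poor and Malat1-rich cells in WT/WT and 456113 and 7715178 in LI/LI, and 5001 genes with a mean of at least 20 CPM in each library were compared. Since the classes were cut from the same cells, these ratios are a description. Of the 5001 genes, 1446 (28.9%) were at least 1.5-fold lower in Malat1-poor cells in both libraries and 142 (2.84%) at least 1.5-fold higher in both. The median log2 ratio of all genes was -0.37 in both libraries. Scaled with TMM factors, which centre the bulk of genes, each log2 ratio stood 0.45 higher, the all-gene medians were 0.09 and 0.08, and the counts became 605 lower and 666 higher, so the balance of lower and higher genes depends on the scaling. The 20 CPM minimum was a mean over the classes, so a gene could pass it through the class where it was high. In 633 of the 1446 lower genes the Malat1-poor class was below 20 CPM in at least 1 library, and in 7 of the 142 higher genes the Malat1-rich class was. By counting intervals, 1071 genes were lower and 167 higher past 1.5-fold in WT/WT, and 563 and 66 in LI/LI. Across genes the ratios of the libraries had Pearson's r of 0.829 and 84.4% had the same sign. Genes are not independent replicates, and both libraries share the rule.

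**Figure D3:**
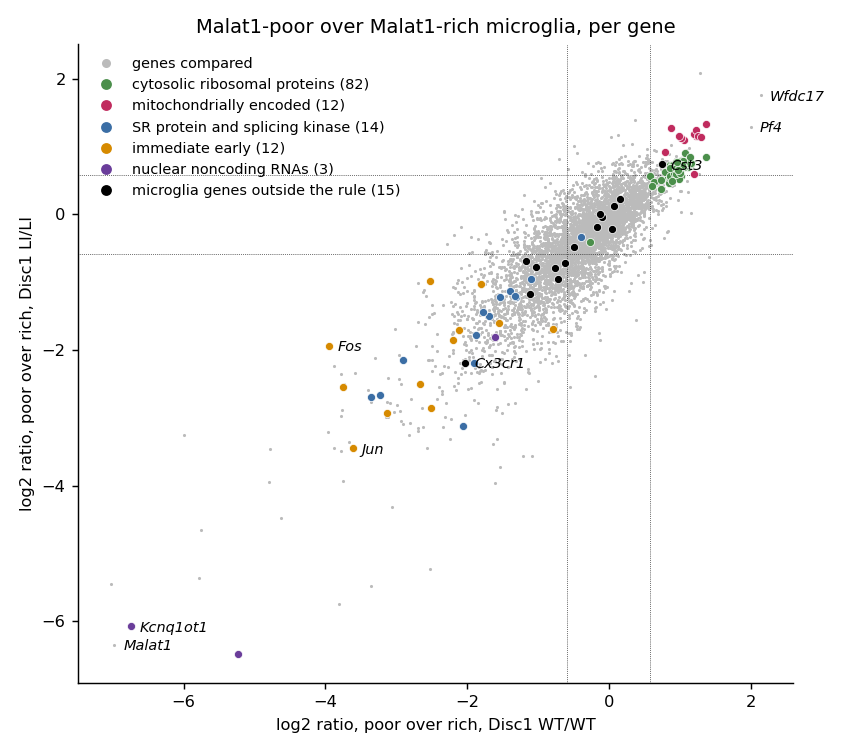
Log2 ratio of Malat1-poor over Malat1-rich microglia for each of 5001 genes in WT/WT (x axis) and LI/LI (y axis), with 0.5 UMI added to each sum. Dotted lines mark 1.5-fold, coloured points are the gene lists named in the key with the number of genes compared, and the nuclear noncoding, immediate early and splicing genes lie at the lower left while mitochondrially encoded and ribosomal protein genes lie at the upper right.

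Noncoding RNAs made up 9 of the 10 lowest genes, Malat1 among them. The 9 besides Malat1 passed the filter through the Malat1-rich class alone in at least 1 library, so they had to be low in Malat1-poor cells. Malat1 itself, which the rule used, had 329 UMIs in Malat1-poor and 841866 in Malat1-rich cells of WT/WT (238 and 30064 CPM) and 170 and 234402 in LI/LI. Kcnq1ot1, the imprinted antisense transcript at chr7:143203458-143296549 that silences its neighbours, had 1 UMI against 3249 in WT/WT (log2 ratio -7.33, -12.63 to -4.85) and 0 against 571 in LI/LI, at least 11.3-fold lower at a floor of 3 UMIs. Mir99ahg, the host transcript of a microRNA cluster, had 5 UMIs against 4192 (-5.37, -7.00 to -4.15) and 0 against 755, at least 14.9-fold lower. Gm32036 had no UMI in either library's Malat1-poor cells against 1318 and 370, at least 21.7-fold and 7.29-fold lower. With 4632427E13Rik (5 against 5978 and 2 against 1067 UMIs), Gm47664, Gm10138, B430010I23Rik, Zfp950 and Dleu2 these formed the 10 lowest genes. Zfp950, a zinc finger gene, was the exception to the noncoding annotation, and Kcnq1ot1 and Mir99ahg were in the list of nuclear noncoding RNAs. Whether counting used strand is not given in the sources used here, so reads of Kcnq1ot1 and of Kcnq1, which it overlaps on the opposite strand, could be mixed.

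Noncoding genes as a class were not uniformly low. Of 56 compared besides Malat1, 24 were lower in both libraries and 2 higher, but 18 of the 24 passed the filter through the Malat1-rich class alone in at least 1 library. Of 4940 protein coding genes 1420 were lower, 615 of them in that way. Among genes at the minimum in every class, 6 of 31 noncoding genes besides Malat1 (19.4%) were lower in both libraries. For protein coding genes it was 805 of 3894 (20.7%). Only 3 of the 12 genes in the list of nuclear noncoding RNAs passed the 20 CPM filter, Mir99ahg, Kcnq1ot1 and Tug1, each through the Malat1-rich class, and all 3 were lower. Neat1, the paraspeckle RNA, fell under the filter and had 1 UMI against 932 (log2 ratio -5.53, -10.83 to -3.04) and 3 against 278 (-2.45, -4.74 to -0.89). Gas5, a spliced host transcript of small nucleolar RNAs whose RNA is found in the cytoplasm, had log2 ratios of 0.52 and 0.45. Neat1 and Gas5 were singled out after their values were seen.

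Transcripts of splicing factors were lower too. Of 14 SR protein and splicing kinase genes, 13 were lower in both libraries, beside 28.9% of all genes, and none higher, with medians of -1.73 and -1.47, and 12 were lower under TMM factors. With the microglial limit at 1%, 10 were lower, and the LI/LI median was -0.78 there and -1.0 with the Malat1 limit at 1%. Of the 13, Clk4 and Tra2a, named for this reason, had passed the filter through the Malat1-rich class alone in at least 1 library. Ddx5, an RNA helicase, stood at 400.1 CPM in Malat1-poor and 1165 CPM in Malat1-rich cells of WT/WT (log2 ratio -1.54, -1.67 to -1.42) and at 408 against 951 CPM in LI/LI (-1.22, -1.44 to -1.01). Rsrp1 (-1.40 and -1.14), Son (-1.31 and -1.22) and Srrm2 (-1.11 and -0.96), the last 2 being scaffold proteins of nuclear speckles, were lower in both libraries. The exception was Srsf3, at -0.39 and -0.34, whose direction flips under TMM factors and which was picked out after its value was seen. Several of these genes are known to keep part of their RNA in the nucleus as intron-retaining transcripts.

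Immediate early genes, which respond within minutes to stimulation and whose RNAs are short-lived, were low in Malat1-poor cells. The 12 that passed the filter, of 19, were lower in both libraries, beside 28.9% of all genes. Their medians were -2.51 and -1.89, and 9 were lower past 1.5-fold under TMM factors. The count was 9 with the microglial limit at 1%, and the LI/LI median was -1.17 there and -1.49 with the Malat1 limit at 1%. Of the 12, 4 passed through the Malat1-rich class alone in at least 1 library (Atf3, Dusp1, Fos and Ier2), and 8 did not. These 8 stand beside 20.7% lower among all genes that reached the minimum in every class. Jun, a subunit of the AP-1 factor, had 60.7 CPM in Malat1-poor and 748 CPM in Malat1-rich cells of WT/WT (log2 ratio -3.62, -3.95 to -3.32) and 72.4 against 801 CPM in LI/LI (-3.47, -4.01 to -2.98). Junb stood at -2.68 and -2.52, Jund at -1.55 and -1.61, and Btg2, an antiproliferative early gene, at -2.52 and -2.88. Jun had a UMI in 16.8% of WT/WT Malat1-poor cells, 71.8% of Malat1-rich cells and 38.7% of the neutrophil-rich ones, and in 15.8%, 68.2% and 36.4% in LI/LI. Heat shock genes gave no such count. Of 10, 2 were lower in both libraries, beside 28.9% of all genes. These were the inducible pair Hspa1a (-2.73 and -3.23) and Hspa1b (-3.95 and -2.29), which are near-identical copies, passed the filter through the Malat1-rich class and were named after their values were seen. The constitutive Hspa8 was at 0.11 and 0.06. Of 7 genes of cell death and the integrated stress response compared, 3 were lower, Ddit3 through the Malat1-rich class alone at the filter, and none higher, beside 28.9% and 2.84% of all genes.

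At the other end stood the mitochondrial genome. All 12 mitochondrially encoded genes compared were higher in both libraries, beside 2.84% of all genes, mt-Atp8 having passed the filter through the Malat1-poor class alone in at least 1 library, with medians of 1.20 and 1.16, and all 12 were higher under TMM factors. With the microglial limit raised to 1%, which left 79 and 26 Malat1-poor cells, 7 were higher and the medians were 1.01 and 0.70. mt-Cytb, a subunit of respiratory complex III, stood at 3004 CPM in Malat1-poor and 1157 CPM in Malat1-rich cells of WT/WT (log2 ratio 1.38, 1.33 to 1.42) and at 2513 against 1001 CPM in LI/LI (1.33, 1.24 to 1.42). mt-Co1 stood at 1.06 and 1.10, mt-Co3 at 1.22 and 1.25 and mt-Atp6 at 1.24 and 1.15. Most nuclear genes for the same respiratory chain did not pass 1.5-fold. Of 79 compared, 8 were higher and 2 lower in both libraries, beside 2.84% and 28.9% of all genes, and 69 were neither (1 of the lower, Ndufaf4, passed the filter through the Malat1-rich class alone), with medians of 0.48 and 0.38. The count of higher genes was 3 at a Malat1 limit of 1% and 59 under TMM factors. Cox4i1 was at 0.91 and 0.66 and Uqcrh at 0.86 and 0.70.

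Cytosolic ribosomal protein genes were the largest group on this side. Of 82 compared, 67 were higher in both libraries and none lower, beside 2.84% and 28.9% of all genes, with medians of 0.97 and 0.71, and 81 were higher under TMM factors. With the microglial limit at 1% the count was 19, with medians of 0.83 and 0.46. Fau, the small-subunit protein made as a ubiquitin-like fusion, stood at 6813 against 3185 CPM in WT/WT (log2 ratio 1.10, 1.07 to 1.13) and 6862 against 4026 CPM in LI/LI (0.77, 0.72 to 0.82). Rplp1 (1.08 and 0.91), Rps24 (1.16 and 0.76) and Rpl13 (1.05 and 0.72) were alike. Ribosomal protein genes have many processed pseudogenes, so some reads could be split between copies. Among 11 glycolysis genes, Pkm (0.85 and 0.89) and Gpi1 were higher and Hk2 (-0.98 and -1.10), the hexokinase that binds the outer mitochondrial membrane, was lower, so 2 were higher and 1 lower beside the 2.84% and 28.9% of all genes. Under TMM factors 7 of the 11 were higher and none lower. Gpi1 was named after its value was seen.

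Transcript length went with the ratio. Protein coding genes were split into quintiles by the spliced length of their longest annotated transcript. In the shortest quintile, median length 1228 nucleotides, the median log2 ratios were 0.14 in WT/WT and 0.10 in LI/LI, and 47 of 985 genes (4.77%) were lower in both libraries. In the longest quintile, median length 6872 nucleotides, they were -0.89 and -0.86, and 564 of 986 genes (57.2%) were lower. The quintiles between were ordered in both libraries. Across 4928 genes Spearman's rho between length and ratio was -0.549 and -0.490, and without ribosomal protein genes -0.534 and -0.473. Length and expression level went together, with a median length of 3390 nucleotides in the lowest quintile of CPM and 2481 in the highest. Within quintiles of CPM, rho ran from -0.433 to -0.621 in WT/WT and from -0.303 to -0.606 in LI/LI. Total gene length including introns had rho of -0.418 and -0.368. Depth, nuclear RNA and length moved together in these cells, and their parts in the ratios were not tested.

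**Figure D4:**
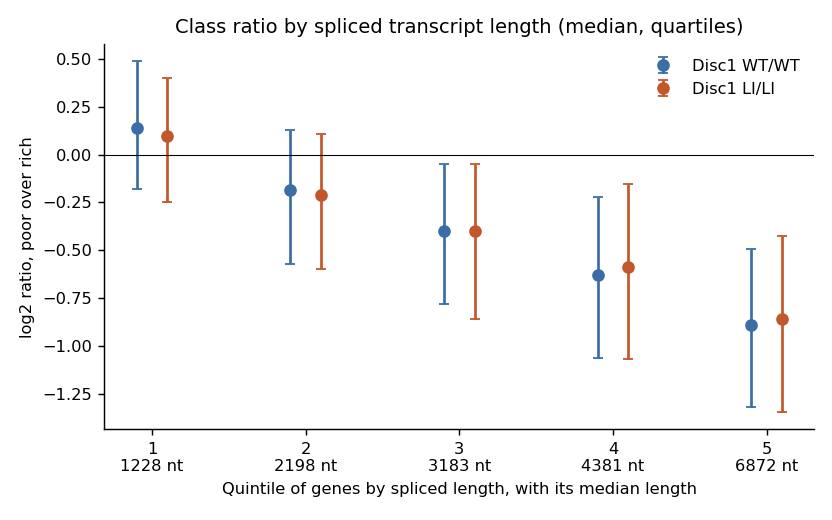
Log2 ratio of Malat1-poor over Malat1-rich microglia (y axis) in quintiles of protein coding genes by spliced transcript length (x axis, with the median length of each quintile in nucleotides). Points are medians over genes and bars run between quartiles, for WT/WT and LI/LI, and the medians go from 0.14 and 0.10 in the shortest quintile to -0.89 and -0.86 in the longest.

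Microglial genes did not move as one group. Of 15 outside the rule, 7 were lower in both libraries and 1 higher, beside 28.9% and 2.84% of all genes, with medians of -0.49 and -0.48, close to the all-gene medians of -0.37, and near 0 (-0.05 and -0.03) under TMM factors, where 2 were lower and 2 higher. At a microglial limit of 1% or a Malat1 limit of 1%, 4 were lower. The strongest single difference was in Cx3cr1, at 840 CPM in Malat1-poor and 3422 CPM in Malat1-rich cells of WT/WT (log2 ratio -2.03, -2.11 to -1.94) and 645 against 2939 CPM in LI/LI (-2.19, -2.36 to -2.02). In Malat1-rich cells it had a UMI in 99.3% and 99.8%. Cst3, the secreted protease inhibitor cystatin C and the most abundant of the list by UMIs, went the other way, at 109680 against 65330 CPM (0.75, 0.74 to 0.76) and 137210 against 82117 CPM (0.74, 0.73 to 0.75). Sparc (-0.16 and -0.19) and Trem2 (0.16 and 0.23), the lipid-sensing receptor, were within 1.5-fold, but under TMM factors Sparc is positive and Trem2 past 1.5-fold. Summed CPM of the 15 genes was higher in Malat1-poor cells (134820 against 96821 in WT/WT, 163630 against 113290 in LI/LI). Cst3 alone differed by more than this sum did. Without it the other genes together were lower in Malat1-poor cells of both libraries at this scaling. Of the 6 rule genes, which the limits constrained, P2ry12 (-0.85 and -0.69), Gpr34 (-0.66 and -0.69) and Tmem119 (-0.73 and -0.66) were lower and Fcrls stood at -0.16 and -0.13, a direction that flips under TMM factors.

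Complement genes did not move as one group either. C1qa (0.14 and 0.18), C1qb (0.41 and 0.40) and C1qc (0.08 and 0.12) were within 1.5-fold, while 4 of 11 compared were lower in both libraries, beside 28.9% of all genes, and 2 with the microglial limit at 1%. They were the receptors C3ar1 (-1.46 and -0.97), C5ar1 (-1.58 and -1.48) and C5ar2 (-1.39 and -1.74) and the regulator Cr1l (-1.15 and -0.84). Under TMM factors 2 were lower and 2 higher, the higher ones being C1qa and C1qb. The median of this list, -0.22 and -0.08, flips to 0.22 and 0.37 there. C5ar2 passed the filter through the Malat1-rich class alone in at least 1 library. C3ar1, C5ar1 and Cr1l were named after their values were seen. Of 15 disease-associated microglia genes in the files 8 passed the filter, Cst7 through the Malat1-poor class alone in at least 1 library. The higher ones, beside 2.84% of all genes, were Fth1 (0.93 and 0.81), the ferritin heavy chain, Tyrobp (0.81 and 0.71), the adaptor of Trem2, Apoe (1.27 and 0.59), named after its value was seen, and Cst7 (1.27 and 2.07). Under TMM factors 7 of the list were higher, and with the microglial limit at 1% 2. Cd9, another gene of the list, stood at -0.21 and -0.23, a direction that flips under TMM factors. Spp1 had 5 UMIs in WT/WT Malat1-poor cells and 0 in LI/LI, and Gpnmb 1 and 0.

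Among cytoskeletal and lysosomal genes, none of 9 ARP2/3 complex genes, 9 genes for actin and its monomer binders, 8 WAVE complex and Rac genes, 4 formins and partners and 10 lysosomal cathepsins passed 1.5-fold in both libraries. Over all genes 28.9% were lower and 2.84% higher, and lists this small would hold few higher members at that share. The all-gene median was -0.37. The list medians were 0.07 and 0.05 for ARP2/3, the branched actin nucleator, 0.34 and 0.09 for actin and its monomer binders, -0.13 and -0.20 for the WAVE complex and Rac, -0.47 and -0.17 for the 4 of 14 formins and partners compared, and -0.07 and 0.04 for cathepsins. TMM factors add 0.45 to each, which turns the medians of the WAVE complex and Rac, the cathepsins and, in LI/LI, the formins positive. Under them 2 of the ARP2/3 genes were higher and the medians of that list were 0.52 and 0.49. Of 12 genes for endoplasmic reticulum chaperones and the translocon, 3 were lower and 1 higher, beside 28.9% and 2.84% of all genes, and of 5 interferon response genes compared none passed in both. Among 3 ribosomal RNA gene models 2 passed, AY036118 higher and Gm26917 lower, the latter through the Malat1-rich class alone at the filter. Among 18 genes the study names for these data, 8 were lower (C5ar2 among them) and none higher in Malat1-poor cells, beside 28.9% and 2.84% of all genes, 4 and 2 under TMM factors. A microglial limit of 1% left 3 lower. That list was chosen on these samples.

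The 10 highest genes were 6 of the mitochondrial genome together with Wfdc17, Pf4, Cst7 and Gstm5. Wfdc17, a secreted antiprotease of activated macrophages, had 70 UMIs in Malat1-poor and 322 in Malat1-rich cells of WT/WT (50.6 and 11.5 CPM, log2 ratio 2.14, 1.74 to 2.51) and 22 and 112 in LI/LI (1.73, 1.00 to 2.40). Pf4, a chemokine that marks border-associated macrophages, had 192 and 968 UMIs in WT/WT (2.00, 1.77 to 2.23) and 19 and 134 in LI/LI (1.26, 0.49 to 1.96). Wfdc17, Pf4 and Cst7 passed the filter through the Malat1-poor class alone in at least 1 library, and rest on few cells. Wfdc17 had a UMI in 7.94% of WT/WT Malat1-poor cells and 2.23% of Malat1-rich cells, and in 16.0% of the neutrophil-rich cells, above both. In LI/LI the order of the classes was the other way, at 3.03% (5 cells) against 3.98%, with 16.4% of the neutrophil-rich cells. Its LI/LI log2 ratio, 1.76 with 0.5 UMI added, was 0.21 with S100a8 plus S100a9 limited to 0.1% and 0.40 with the microglial limit at 1%.

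Markers of other cell types were followed beside these values. The 8 border-associated macrophage markers summed to 402 CPM in WT/WT Malat1-poor cells and 264 CPM in Malat1-rich ones, with Pf4 and Stab1 the most abundant, and 178 against 186 CPM in LI/LI, where Cd163 was at 0 in the Malat1-poor cells. At least 3 of the 8 had a UMI in 35 of 441 WT/WT Malat1-poor cells (7.94%) and 123 of 5739 Malat1-rich cells (2.14%), and in 3 of 165 and 14 of 1785 in LI/LI. With cells that had UMIs of at least 2 of these markers left out, 1427 genes were lower and 143 higher in both libraries. The 13 neutrophil markers summed to 47.7 and 42.6 CPM in WT/WT, S100a8 and S100a9 leading, and to 1204 and 1374 CPM in LI/LI, so their sums differed mainly between the libraries. At least 3 of them had a UMI in 0 of 441 WT/WT and 77 of 165 LI/LI Malat1-poor cells (46.7%), against 4 of 5739 and 1409 of 1785 (78.9%) of the deeper Malat1-rich cells, and Cxcr2 was at 0 in both. The 7 monocyte markers summed to 45.5 against 32.9 CPM in WT/WT and 147 against 247 CPM in LI/LI, Malat1-poor against Malat1-rich. In Malat1-poor cells they were led by F13a1 in WT/WT and Chil3 in LI/LI, with Vcan at 0 in both. The 8 T and NK cell markers were all at 0 in WT/WT Malat1-poor cells and had 1 UMI, of Nkg7, in LI/LI. Neuron markers had 3 UMIs and 1 UMI, and erythroid markers 4 and 9. Astrocyte markers summed to 101 against 289 CPM in WT/WT and 92.1 against 258 CPM in LI/LI, nearly all from Slc1a3, a glutamate transporter, with Aqp4 and Gja1 at 0 in the Malat1-poor cells. B and plasma cell markers, led by Ighm, summed to 233 against 244 CPM in WT/WT and 274 against 471 CPM in LI/LI, with Cd79a at 0 in the Malat1-poor cells. Oligodendrocyte markers summed to 93.2 against 87.6 and 54.8 against 94.6 CPM, endothelial markers to 17.3 against 30.5 and 19.7 against 19.3 CPM, and cycling genes to 165 against 110 and 127 against 156 CPM. The part of other cells' RNA in the class ratios was not tested.

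Doublets were scored with Scrublet. Malat1-poor cells had median scores of 0.029 and 0.0115 against 0.0859 and 0.0354 in Malat1-rich cells, and 2 of the 441 and none of the 165 were among the highest 5% of their library.

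Between genotypes, the Malat1-poor cells carried the C1q difference that the Malat1-rich cells did. C1qa stood at 11496 CPM in WT/WT and 15759 CPM in LI/LI Malat1-poor cells, a log2 ratio of 0.46 (0.41 to 0.50), beside 0.42 in Malat1-rich cells. C1qb was at 0.42 in both classes and C1qc at 0.35 beside 0.32. Among the study's other named genes, Actr2, a subunit of the ARP2/3 complex, was at -1.04 (-1.37 to -0.72) beside -0.57 in Malat1-rich cells, and Cyfip1, of the WAVE complex, at -0.96 (-1.17 to -0.75) beside -0.45. Actr3 was at -0.13 with an interval that reached 0.18. P2ry12 was at -0.19 (-0.30 to -0.09) beside -0.35, and Cx3cr1 at -0.38 (-0.57 to -0.20) beside -0.22. These are differences between 2 pooled libraries, with no replicate behind them.

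**Figure D5:**
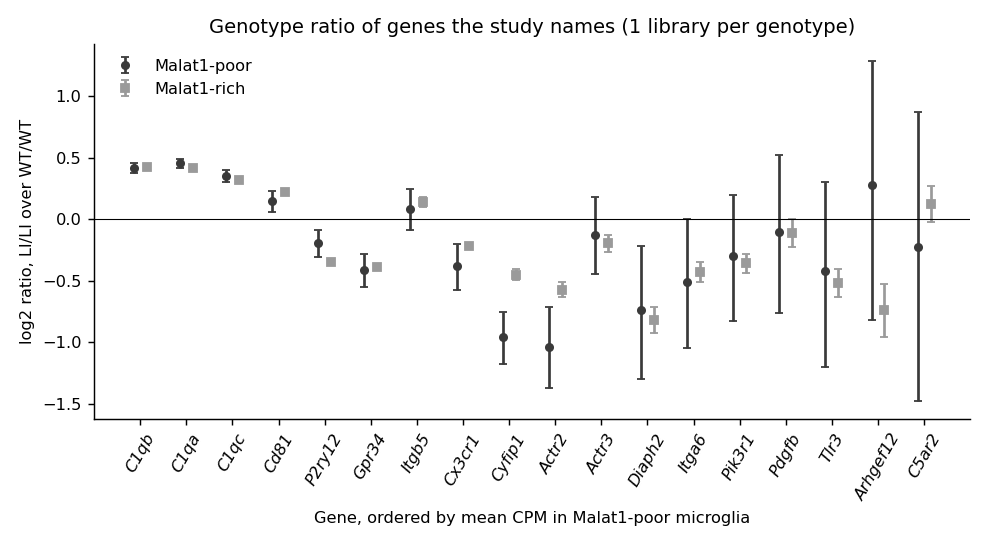
Log2 ratio of LI/LI over WT/WT (y axis) for the 18 genes the study names that were compared, ordered by mean CPM, in Malat1-poor (circles) and Malat1-rich (squares) microglia. Bars are 95% counting intervals, and the C1q chains are above 0 in both classes while P2ry12, Gpr34, Cx3cr1, Cyfip1, Actr2 and Diaph2 are below 0 in both.

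Disc1 itself could not be judged in the Malat1-poor cells. It had 4 UMIs in WT/WT and 0 in LI/LI, and 0 of 165 cells allows a share of cells with a UMI of up to 1.82% at 3 counts of the total (2.21% by the exact interval), which does not limit the share of cells expressing the gene. In Malat1-rich cells it had 593 and 18 UMIs, a log2 ratio of -3.18 (-3.95 to -2.51), so the libraries followed their labels. The complement regulator Cd55 had 1 UMI and 0.

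Over 4599 genes with a mean of at least 20 CPM in Malat1-poor cells, 876 (19.0%) were at least 1.5-fold lower in LI/LI and 266 (5.78%) higher. In 321 of the 876 the LI/LI level was below 20 CPM, and in 96 of the 266 the WT/WT level was, so these passed the filter through the other library. Counting intervals cleared 1.5-fold for 70 lower and 19 higher genes. In Malat1-rich cells the same genes gave 478 lower and 48 higher. TMM factors added 0.13 to each genotype ratio and gave 728 lower and 527 higher in Malat1-poor cells. With the microglial limit at 1%, which left 26 LI/LI cells, the balance turned, with 830 lower and 1770 higher and an all-gene median of 0.20 in place of -0.09, and after thinning to 1000 UMIs there were 978 lower and 630 higher. The 3 of 18 study-named genes that passed were Actr2, Cyfip1 and Diaph2 (-0.74), all lower. Of 13 mitochondrially encoded genes 4 were lower, beside 19.0% of all genes, and 1 of the 4, mt-Nd6, passed the filter through WT/WT alone, with mt-Nd5, a subunit of respiratory complex I, at -1.11 (-1.36 to -0.87) beside -1.23 in Malat1-rich cells and mt-Nd4l at -1.0 beside -0.84. Of 10 immediate early genes 6 were higher, beside 5.78% of all genes, 2 of them (Fos and Ier2) through LI/LI alone at the filter. The median of the 10 was 0.68 beside 0.41 in Malat1-rich cells. Fos had a UMI in 1.36% of WT/WT and 5.45% of LI/LI Malat1-poor cells but in 92.4% and 97.2% of neutrophil-rich cells, which were far more numerous in LI/LI, and their part in this count was not tested. Of the 82 ribosomal protein genes none passed, at a median of 0.01 beside 0.29.

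The highest genotype ratios were mostly transcripts of neutrophils, monocytes and plasma cells: Ngp, Chil3, Elane, S100a6, Lcn2, Camp, Igkc, Retnlg, S100a8 and S100a9. S100a8 and S100a9, which the rule capped, had 21 and 19 UMIs in WT/WT and 144 and 126 in LI/LI, with log2 ratios of 4.38 and 4.33 beside 4.54 and 4.73 in Malat1-rich cells. All 7 neutrophil markers compared were higher, but each was below 20 CPM in WT/WT and passed the filter through LI/LI, so this count was fixed by the filter. Chil3 and Igkc also passed through LI/LI alone. The LI/LI library held 3668 neutrophil-rich cells against 119, and the part of their free RNA was not tested. The lowest included Ahcyl1 (59 against 2 UMIs, -3.28, -6.36 to -1.36), F13a1, Mybbp1a, Fer, Btaf1, Rbm28, Hist1h1e, Mrc1 and Grsf1, each on 7 or fewer UMIs in LI/LI. That is below 20 CPM, so these genes passed the filter through WT/WT alone and had to be low in LI/LI. Mrc1, a mannose receptor of border-associated macrophages, had 97 against 6 UMIs.

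The genotype ratio in Malat1-poor cells minus that in Malat1-rich cells was taken for 2333 genes. Each had a mean over the libraries of at least 50 CPM in each class. With a separate 95% interval for every gene, counting error alone would put some genes on each side of 0, and how many was not tested. The interval of the difference lay above 0 for 74 genes and below 0 for 263. The lowest were Ifitm3 (-2.04, -2.54 to -1.53), an interferon-induced membrane protein, Ubqln1 (-1.42, -2.39 to -0.46), Zfp91 (-1.30), Polr2k (-1.29) and Cdv3 (-1.22). With the Malat1 limit at 1% these differences were -1.10, -1.21, -0.56, -0.87 and -0.48, in the same order. The highest were Ngp (1.5, with an interval from -0.86 to 3.86), a neutrophil granule gene that reached the minimum through LI/LI alone, Il7r (1.05, 0.41 to 1.70), Rassf2, Dock11 and Mrpl15. Ifitm3 had 153 UMIs in Malat1-poor and 1168 in Malat1-rich cells of WT/WT, 110.5 against 41.7 CPM, and 42 and 1110 in LI/LI, 92.1 against 144 CPM. Its genotype ratio was -0.26 (-0.79 to 0.24) in Malat1-poor cells and 1.79 (1.67 to 1.91) in Malat1-rich ones.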

How the data were processed

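The authors ran Cell Ranger with STAR on mm10 and worked in Seurat 3.0.1, per the labels and the study's methods. Each deposited matrix holds raw UMI counts per gene and barcode for 1 droplet library of sorted brain cells from 1 genotype. Kit versions v3 and v3.1 were used, but which library had which is not given in the sources used here. The authors' cell type calls were not used. Members and gene lists were chosen with earlier results of these data known.

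From the counts, cells were filtered, gated and split by the rule given above, and UMIs were summed per class and library as CPM with exact Poisson intervals. Ratios carry Clopper-Pearson intervals for counting error only, and 0.5 UMI was added for sorting, medians and counts past 1.5-fold. Zero counts were bounded at 3 UMIs. Cells were thinned with a fixed seed, scored with Scrublet in scanpy 1.11.5 (its automatic threshold marked 0 WT/WT and 319 LI/LI cells, so the highest 5% of scores were used), and TMM factors came from edgeR 4.0.16 as an alternative scaling. No test across samples was possible with 1 library per genotype. Gene types and lengths came from GENCODE M21, which matched 4998 of the 5001 genes compared. Scripts were tested on simulated data.

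Genes named were the rule genes and Disc1, genes the study names, the 10 highest and 10 lowest per comparison, the 5 highest and 5 lowest differences between classes, and the 4 most abundant per list. Some genes that met these rules are not reported here. Other genes are marked where they appear. Alternatives included other limits on Malat1, the microglial genes, depth and expression level, and the removal of high doublet scores.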

Additional observations from a re-analysis of the deposited data

Results flagged for a closer look

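Of the 5001 genes compared, Tesk1 and Ifitm3 passed 1.5-fold in opposite directions in the libraries, Malat1-poor over Malat1-rich. Tesk1 had log2 ratios of -0.74 in WT/WT and 0.79 in LI/LI. Ifitm3 had 1.41 in WT/WT and -0.64 in LI/LI. With 1 library per genotype these differences were not tested.

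Cells outside both the microglial and neutrophil limits, with the 6 microglial genes under 0.1% of UMIs, entered no comparison. In LI/LI 25% of them (480 of 1920) had Malat1 below 0.5% of UMIs, against 13.7% (43 of 315) in WT/WT. Their median depth in LI/LI was 7833 UMIs below the Malat1 limit and 6223 above it, the reverse of the order in microglia, and in WT/WT 1548 below and 3920 above, the same order as in microglia. Among cells with at least 1% S100a8 plus S100a9, 10.2% (374 of 3668) in LI/LI and 5.88% (7 of 119) in WT/WT had Malat1 below the limit.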

How the results depend on the processing

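No paired analysis was possible because each genotype has 1 library. Sign changes were counted for 48 class ratios, mostly of the 10 highest and 10 lowest genes, each repeated over the alternatives. Of the 828 values of called ratios, 824 kept their sign. For 19 genotype ratios it was 341 of 342 values, and for 10 differences between classes 178 of 180. These too were the highest and lowest. Ratios chosen as extreme have little room to change sign, so the counts do not show how stable other ratios were. Srsf3, Fcrls, Cd9 and Sparc, whose directions flip under TMM factors, were not counted.

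With the microglial limit at 1%, which left 79 and 26 Malat1-poor cells, the shares were 1.83% and 2.20%, 613 genes were lower, and 1770 genes were higher in LI/LI. The LI/LI class ratios of Gstm5 (-0.013) and mt-Nd4l (-0.22) and the difference for Ngp (-0.94) reversed there. The LI/LI class ratio of Disc1 (1.82) changed sign too, but Disc1 had no UMI in LI/LI Malat1-poor cells. That value comes from the added 0.5 UMI and gives no direction. At a limit of 0.25%, chosen after seeing the data, the shares were 8.58% and 10.5%. A Malat1 limit of 1% gave shares of 7.35% and 10.4% and, in LI/LI, 1071 genes per cell and 1.47% mitochondrial UMIs, and cells of 2000 to 6000 UMIs shares of 7.50% and 6.17%. The interval of the difference between the shares lay above 0 at the microglial limit of 0.25% (0.46 to 3.40 points) and the Malat1 limit of 1% (1.57 to 4.57), with S100a8 plus S100a9 limited to 0.1% (0.051 to 3.18 points), with mitochondrial UMIs limited to 5% (0.035 to 2.83) and without cells carrying border-associated macrophage markers (0.38 to 3.20).

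Thinning gave medians of 557 and 521 genes per cell and 630 genes higher in LI/LI, and reversed the difference for Rassf2 (-0.012). The LI/LI class ratio of Disc1 changed sign (1.10). Disc1 had no UMI in LI/LI Malat1-poor cells under the main rule, so its sign gives no direction. TMM factors gave 605 lower, 666 higher and 527 higher in LI/LI. A minimum of 10 UMIs alone gave 3795 lower, 242 higher, and 2024 lower and 755 higher in LI/LI. A minimum of 100 CPM gave 249 lower, and 120 and 15 in LI/LI, with fewer genes compared, among them 8 lower splicing and 7 lower immediate early genes. Leaving out cells with 2 or more border-associated macrophage markers, added after seeing the data, reversed Mrc1 (0.10), itself one of those markers, so that change is built into the alternative. These are changes in value, and the cause was not tested.

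The 456113 UMIs of LI/LI Malat1-poor cells limit every gene below about 20 CPM, where a ratio rests on fewer than 10 UMIs.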
